A study of Mus musculus with 4 samples.

Results

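The miR-181 family was followed through small RNA libraries of interstitial cells of Cajal (ICC), which pace the contractions of gut muscle. Its members were the rows of the deposited count table named as a 5p or 3p arm of miR-181a, miR-181b, miR-181c or miR-181d. This gave 9 of the 982 entries. The 4 guide arms were mmu-miR-181a-5p, mmu-miR-181b-5p, mmu-miR-181c-5p and mmu-miR-181d-5p, written without the species prefix below, and the other 5 were 3p arms. The rule that picks the rows uses names and no measured value. The libraries came from 2 genotypes and 2 gut regions: Lepob/ob;KitcopGFP/+ mice, which the labels call diabetic and which lack functional leptin, and Lepob/+;KitcopGFP/+ mice, which the labels call healthy and also wild type although they carry 1 ob allele. Below they are ob/ob and ob/+. All mice were C57BL/6, were 11 to 20 weeks old and, controls included, carried 1 Kit allele with the copGFP reporter. Jejunum or colon was dissociated whole and GFP-positive cells were sorted, so that any Kit-positive cell of the tissue, mast cells among them, could enter the gate. Per the labels 15 were pooled for each genotype, and each combination of region and genotype gave 1 library. No library has a replicate of its own. Kit mRNA and other ICC markers were not analysed here, since the table counts miRNAs.

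The ob/ob libraries held 433201 miRNA counts in jejunum and 267077 in colon, and the ob/+ libraries 466335 and 716476. Levels are given in CPM (counts scaled to a fixed library total) with trimmed mean of M-values (TMM) factors, so each is relative to the rest of the miRNA pool. On that scale 1 count was worth at most 3.15 CPM, in ob/ob colon, and at least 1.52 CPM, in ob/+ colon. A count of 0 allowed levels up to 7.12 and 6.84 CPM in ob/ob and ob/+ jejunum and up to 9.45 and 4.55 CPM in ob/ob and ob/+ colon. These floors (3 counts) and all intervals below cover counting error only, as the reads carry no molecular identifiers. MiRNAs made up 12.3% of the mappable reads in ob/ob jejunum and 10.6% in ob/ob colon, against 22.5% and 26.3% in ob/+. In bulk RNA of sorted cells, fewer cells of a type and less RNA per cell cannot be told apart.

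MiRNAs pair with messenger RNAs mainly through their seed, bases 2 to 8 from the 5′ end, and miRNAs with the same seed are expected to share most of their targets. The miR-181 family is conserved among vertebrates and is known above all from blood cells, where miR-181a promotes B-lineage development and raises the sensitivity of the T cell receptor by repressing phosphatases of its signalling pathway. In endothelium miR-181b is known to damp NF-kappaB signalling through an importin. The 5p arm of each hairpin is the guide strand that is usually loaded into Argonaute, and the 3p arm is the passenger strand.

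The 4 guides are shown first because they are nearly identical in sequence. Sequences are from RefSeq (GRCm38.p6), written 5′ to 3′, with the seed in capitals.
miR-181a-5p: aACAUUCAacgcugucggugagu
miR-181b-5p: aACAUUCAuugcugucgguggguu
miR-181c-5p: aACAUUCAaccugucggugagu
miR-181d-5p: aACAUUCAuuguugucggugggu
All 4 guides carry the same seed. Of 1679 distinct mature mouse miRNA names in the RefSeq table, only these 4 have it (0.238%), and none of the 5 passenger arms does. Counted from the 5′ end, miR-181a-5p and miR-181b-5p differ by A9U, C10U and A21G and by 1 further base at the 3′ end of miR-181b-5p. miR-181b-5p and miR-181d-5p differ by C12U and by that same last base. miR-181c-5p equals miR-181a-5p without the base at position 11. The deposited counts of these guides hold fractions. In ob/ob jejunum miR-181b-5p had 555.7 and miR-181d-5p 124.3 counts, which sum to 680. In ob/+ jejunum they had 590.5 and 82.5, which sum to 673. In ob/+ colon the fractional counts were those of miR-181a-5p and miR-181d-5p, and in ob/ob colon all members were whole. How the authors arrived at fractional counts was not stated, and the origin of the fractions was not tested.

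The guides come from 6 genes in 3 clusters of 2, by the RefSeq annotation of GRCm38.p6, the names of which were matched to the deposited entries (9 of 9 members). Mir181a-1 and Mir181b-1 are neighbours on chromosome 1. The next protein-coding gene there is Ptprc, which encodes the leukocyte antigen CD45, on one side and Nr5a2 on the other. Mir181a-2 and Mir181b-2 lie on chromosome 2 within Nr6a1, a nuclear receptor gene, and its opposite-strand transcript Nr6a1os. Mir181c and Mir181d lie on chromosome 8 between Nanos3 and Mir23a. Since miR-181a-5p and miR-181b-5p are each made from 2 genes with one and the same mature sequence, their counts cannot be split between chromosomes 1 and 2. The passenger arms of the 2 Mir181a genes can be, and are shown for that reason. They differ by U5C and U16C.
miR-181a-1-3p: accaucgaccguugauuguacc
miR-181a-2-3p: accaccgaccguugacuguacc

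The family was a small part of the miRNA pool, and miR-181a-5p made up most of it. The 5p arms together held 0.558% of the miRNA counts in ob/ob jejunum (exact binomial 95% interval 0.536 to 0.581) and 0.682% in ob/+ jejunum (0.659 to 0.706). In colon they held 0.803% in ob/ob (0.770 to 0.838) and 0.913% in ob/+ (0.891 to 0.935). By level the guides ran in the order miR-181a-5p, miR-181b-5p, miR-181d-5p and miR-181c-5p in every library. The ranks were 22 to 25 for miR-181a-5p, 39 to 46 for miR-181b-5p and 71 to 123 for miR-181d-5p among all entries of a library. miR-181c-5p, at ranks 205 to 252, lay among the least abundant tested arms with the passenger arms of miR-181a. Its interval overlapped those of both passenger arms in the 2 ob/ob libraries, but lay below that of miR-181a-2-3p in ob/+ jejunum and below that of miR-181a-1-3p in ob/+ colon.

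miR-181a-5p was lower in ob/ob than in ob/+ in both regions. It had 1724 counts in ob/ob jejunum, against 2501 in ob/+ jejunum, and 1448 in ob/ob colon, against 5157.5 in ob/+ colon. These counts correspond to 4090 and 5706 CPM in ob/ob and ob/+ jejunum and to 4560 and 7829 CPM in ob/ob and ob/+ colon. Both ob/ob libraries lay below both ob/+ libraries, and the counting intervals of the 4 levels did not overlap. The ratio of ob/ob over ob/+ was 0.717 in jejunum (log2 -0.48, exact conditional binomial 95% interval -0.57 to -0.39) and 0.582 in colon (-0.78, -0.86 to -0.70).

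miR-181b-5p, the second guide of the chromosome 1 and 2 clusters, did not separate by genotype relative to the miRNA pool. Scaled to mappable reads its log2 ratios were -0.85 in jejunum and -1.07 in colon. In CPM its level was 1319 CPM in ob/ob jejunum and 1346 CPM in ob/+ jejunum, with a log2 ratio of -0.03 (interval -0.20 to 0.14). In colon it was 1710 CPM in ob/ob and 1879 CPM in ob/+, with a log2 ratio of -0.14 (-0.28 to 0.01). The intervals of the 2 genotypes overlapped in each region, whereas both colon libraries lay above both jejunum libraries.

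miR-181d-5p was higher in ob/ob in both regions relative to the miRNA pool, although its log2 ratio in jejunum turned to -0.17 when scaled to mappable reads. It had 124.3 counts in ob/ob jejunum, against 82.5 in ob/+ jejunum, and 144 in ob/ob colon, against 128.5 in ob/+ colon. Set against the smaller ob/ob libraries, this gave 294 and 187 CPM in ob/ob and ob/+ jejunum and 453 and 194 CPM in ob/ob and ob/+ colon. Both ob/ob libraries lay above both ob/+ libraries, and the 2 ob/+ levels had overlapping intervals. The ratio was 1.57 in jejunum (log2 0.65, interval 0.24 to 1.07) and 2.33 in colon (1.22, 0.87 to 1.58). With TMM scaling miR-181d-5p was the one guide past 2-fold in either region. Scaled to mappable reads its ratios were 0.891 in jejunum and 1.22 in colon. On that scale miR-181a-5p was past 2-fold lower in both regions (0.406 in jejunum, 0.305 in colon) and miR-181b-5p in colon (0.476).

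miR-181c-5p, made from the same cluster as miR-181d-5p, was counted 14 times in ob/ob jejunum and 9 times in ob/+ jejunum. In colon it had 10 counts in ob/ob and 14 in ob/+. The levels were 33.2 and 20.5 CPM in ob/ob and ob/+ jejunum and 31.5 and 21.2 CPM in ob/ob and ob/+ colon. Its log2 ratios of 0.69 in jejunum and 0.57 in colon had the sign of those of miR-181d-5p (-0.13 and -0.37 scaled to mappable reads), but their intervals reached from -0.62 to 2.08 and from -0.76 to 1.84, so that no difference was detectable at this depth.

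**Figure D1:**
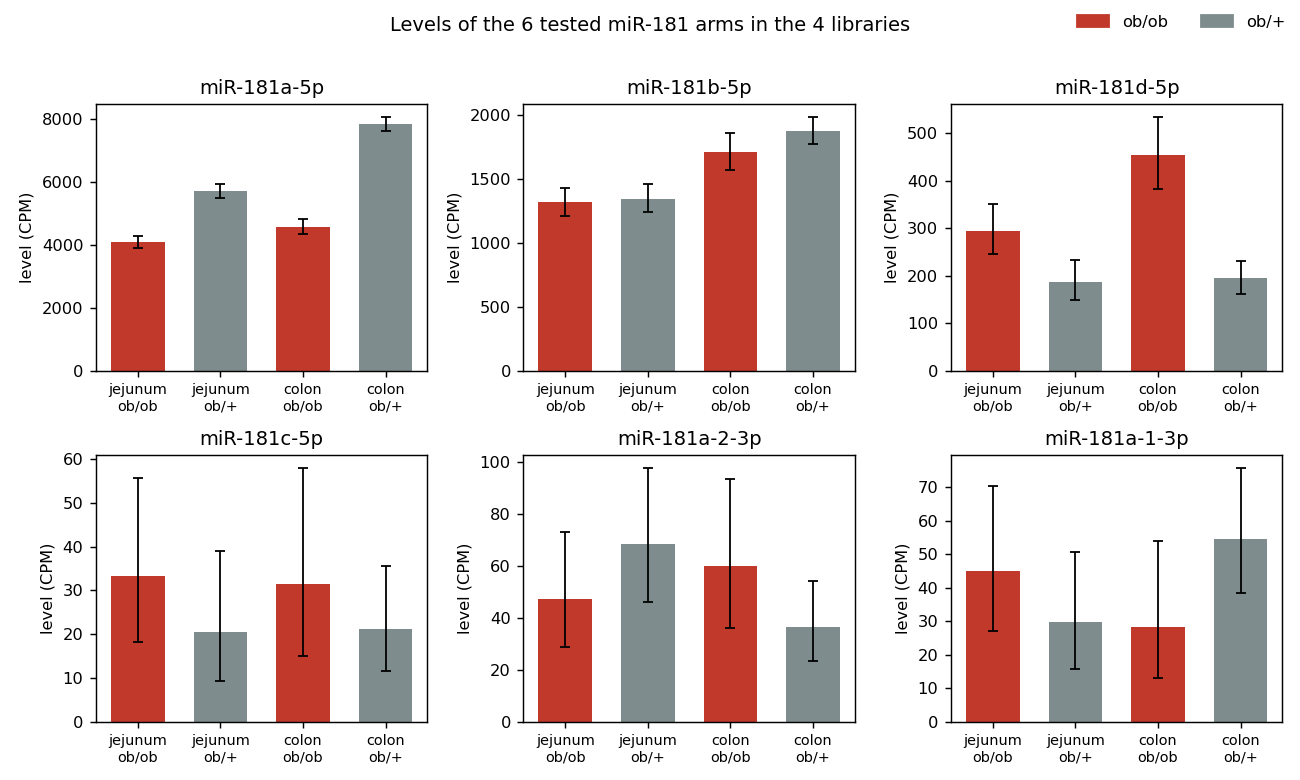
Level in CPM (TMM-scaled, linear axes from 0) of each miR-181 arm that passed the filter, in the ob/ob (red) and ob/+ (grey) libraries of jejunum and colon; each bar is 1 library and each error bar the exact binomial 95% counting interval. On this scale miR-181a-5p is lower and miR-181d-5p higher in the ob/ob library of both regions (miR-181d-5p in jejunum turns to a log2 ratio of -0.17 scaled to mappable reads), and the 3 least abundant arms have wide intervals.

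The 3p arms showed no common pattern by genotype. miR-181a-1-3p, from chromosome 1, had 19 counts in ob/ob jejunum and 13 in ob/+ jejunum, but 9 in ob/ob colon and 36 in ob/+ colon. miR-181a-2-3p, from chromosome 2, had 20 counts in ob/ob jejunum and 30 in ob/+ jejunum, and 19 in ob/ob colon and 24 in ob/+ colon. As log2 ratios of the levels, miR-181a-1-3p stood at 0.60 in jejunum (interval -0.49 to 1.74) and -0.95 in colon (-2.19 to 0.13), and miR-181a-2-3p at -0.53 (-1.42 to 0.34) and 0.72 (-0.23 to 1.65). The arms of the 2 genes thus took opposite signs within each region, and each interval included 0. Set directly against miR-181a-2-3p, miR-181a-1-3p was 0.316 times as high in ob/ob as in ob/+ colon (0.108 to 0.890), an interval that excludes 1. For jejunum this value was 2.19 (0.810 to 5.99). Of the passenger reads of the 2 Mir181a genes, the chromosome 1 gene gave 48.7% in ob/ob jejunum (32.4 to 65.2) and 30.2% in ob/+ jejunum (17.2 to 46.1). In colon it gave 32.1% in ob/ob (15.9 to 52.4) and 60.0% in ob/+ (46.5 to 72.4).

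The passenger arms of miR-181a were rare beside their guide. They were 2.21% of the counts of both arms in ob/ob jejunum (1.58 to 3.01), against 1.69% in ob/+ jejunum (1.23 to 2.27). In colon they were 1.90% in ob/ob (1.26 to 2.73), against 1.15% in ob/+ (0.879 to 1.48). The remaining 3 members were close to or under the floor. miR-181c-3p had 2 counts in each ob/ob library and 0 in each ob/+ library, and miR-181d-3p had 4 in ob/ob jejunum, 1 in ob/+ jejunum and 0 in both colon libraries. miR-181b-1-3p had 0 counts in ob/+ jejunum and 1 in each of the other 3 libraries. No fold is given for these.

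The make-up of the family does not depend on how libraries are scaled, and it differed between the genotypes in the same way in both regions. miR-181a-5p gave 70.0% of the miR-181 counts in ob/ob jejunum (68.1 to 71.8), against 77.5% in ob/+ jejunum (76.0 to 79.0). In colon it gave 66.5% in ob/ob (64.5 to 68.5), against 78.2% in ob/+ (77.1 to 79.2). The share of miR-181d-5p was 5.03% in ob/ob jejunum (4.20 to 5.97), against 2.54% in ob/+ jejunum (2.03 to 3.15), and 6.62% in ob/ob colon (5.61 to 7.74), against 1.94% in ob/+ colon (1.62 to 2.30). The share of miR-181b-5p was 22.6% in ob/ob jejunum (20.9 to 24.3), against 18.3% in ob/+ jejunum (17.0 to 19.7), and 25.0% in ob/ob colon (23.1 to 26.8), against 18.8% in ob/+ colon (17.8 to 19.7). For these 3 guides the intervals of the genotypes did not overlap in either region, whereas the 2 ob/+ libraries overlapped each other. miR-181c-5p held 0.568% and 0.279% in ob/ob and ob/+ jejunum and 0.460% and 0.212% in ob/ob and ob/+ colon, with overlapping intervals.

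**Figure D2:**
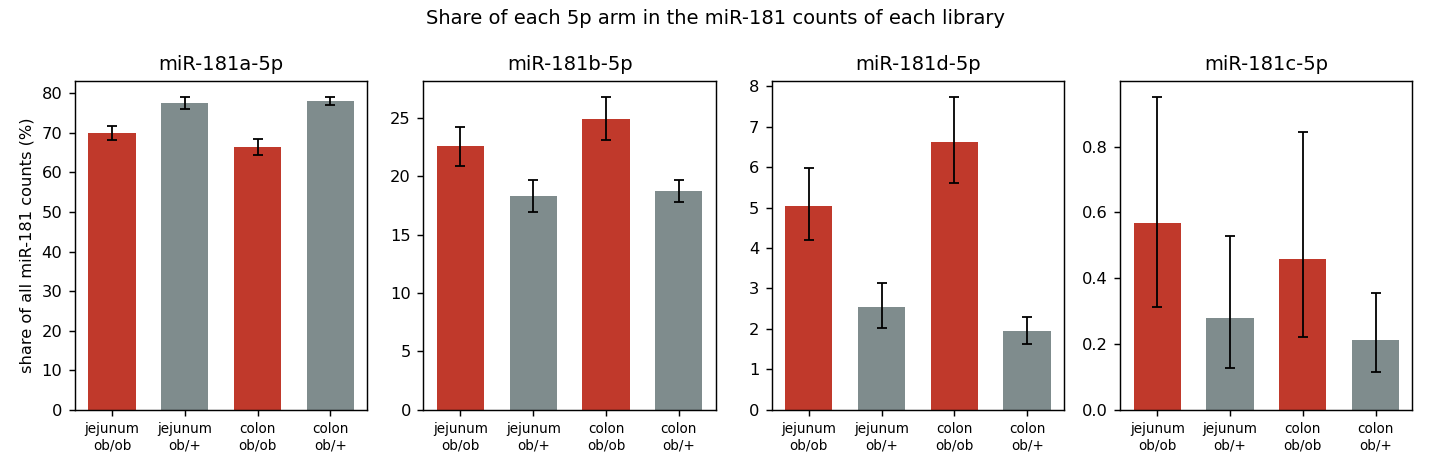
Share of each 5p arm among all miR-181 counts (percent, linear axes from 0) in the ob/ob (red) and ob/+ (grey) libraries of jejunum and colon, 1 library per bar, with exact binomial 95% counting intervals. In ob/ob the share of miR-181a-5p is lower and those of miR-181b-5p and miR-181d-5p are higher than in ob/+ of the same region.

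Expressed per 100 counts of miR-181a-5p, miR-181d-5p stood at 7.19 in ob/ob jejunum (5.95 to 8.63), against 3.28 in ob/+ jejunum (2.60 to 4.09). In colon it stood at 9.94 in ob/ob (8.32 to 11.8), against 2.48 in ob/+ (2.07 to 2.96). This ratio was thus 2.19 times higher in ob/ob in jejunum (interval 1.63 to 2.96) and 4.01 times higher in colon (3.11 to 5.16). miR-181b-5p per miR-181a-5p was 1.37 times higher in jejunum (1.20 to 1.56) and 1.56 times higher in colon (1.39 to 1.76). miR-181d-5p also differed from miR-181b-5p, its nearest relative in sequence, by 1.60 times in jejunum (1.17 to 2.20) and 2.56 times in colon (1.96 to 3.35). miR-181c-5p per miR-181d-5p, the 2 guides of one cluster, gave 1.03 times in jejunum (0.393 to 2.83) and 0.635 times in colon (0.244 to 1.60), intervals that both include 1 and in which a 2-fold difference would go undetected. Because miR-181b-5p and miR-181d-5p were the fractional pair in both jejunum libraries, their sum was also formed, a step chosen after the data were seen. It does not cover ob/+ colon, where the fractional pair was miR-181a-5p and miR-181d-5p. Together they made 27.6% of the family in ob/ob jejunum (25.8 to 29.4), against 20.8% in ob/+ jejunum (19.4 to 22.3), and 31.6% in ob/ob colon (29.6 to 33.6), against 20.7% in ob/+ colon (19.7 to 21.7). These intervals compare the libraries and not the genotypes, since each rests on 1 library per group.

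The test that treats the 2 regions as replicates asked whether any arm differed between the genotypes beyond the spread seen across the whole table. The labels do not say whether jejunum and colon of a genotype came from the same animals, so these replicates may share them. Of the 9 members 6 passed the filter (mean level of 10 CPM or more over the libraries), and 0 of these 6 passed edgeR's quasi-likelihood test with region as a term and Benjamini-Hochberg adjustment over all 322 entries tested. In the same test 59 of the 322 entries were called (18.3%), 8.07% (26) higher and 10.2% (33) lower in ob/ob. Other scalings gave 44 higher and 28 lower with library totals, 46 and 38 with median-of-ratios factors, 76 and 45 with TMM over the tested entries, and 19 and 158 scaled to mappable reads. Leaving out either ob/ob library left 2 calls, and leaving out the ob/+ jejunum library gave 89. At an unadjusted p under 0.05 edgeR gave 2 of the 6 arms and 131 of the 322 entries. With adjusted p under 0.05 DESeq2 called 1 of the 6 and 62 of the 322, and limma-voom 0 of the 6 and 34 of the 322. The 2 arms with the smallest p lay on opposite sides. The log2 change of miR-181a-5p was -0.63 ± 0.18 (SE derived from the test's F value; adjusted p = 0.0764, lower in 2 of 2 regions). That of miR-181d-5p was 0.95 ± 0.28 (adjusted p = 0.0784, higher in 2 of 2 regions). Their adjusted p moved over 15 other settings between 3.59e-07 and 0.270 for miR-181a-5p and between 0.00270 and 0.858 for miR-181d-5p. Each passed in 6 of the 15, for miR-181a-5p including the fit without the ob/+ jejunum library. Such settings also called more of the whole table than the test above. With all 4 libraries they called 62 of the 322 entries in DESeq2, 84 with median-of-ratios factors and 86 with no region term. They called 121 with the authors' factors, 121 with TMM over the tested entries and 177 scaled to mappable reads. Without hairpin entries 111 of 309 were called, and at a 100 CPM filter 70 of 151.

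The remaining arms were further from the threshold in edgeR's test. The log2 change was 0.62 ± 0.41 for miR-181c-5p (adjusted p = 0.317), and in the same terms miR-181a-1-3p stood at -0.17 ± 0.50 (0.801), miR-181b-5p at -0.08 ± 0.20 (0.762) and miR-181a-2-3p at 0.07 ± 0.44 (0.908). The signs of miR-181b-5p and of both passenger arms turned under other scalings. The median log2 change was -0.01 over the 6 arms and -0.09 over all 322 entries. Of the 6 arms 3 lay above 0 and 3 below, and 3 of them lay within 1 SE of 0. With library totals or TMM over the tested entries 5 of 6 lay above 0, and scaled to mappable reads 5 of 6 lay below.

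**Figure D3:**
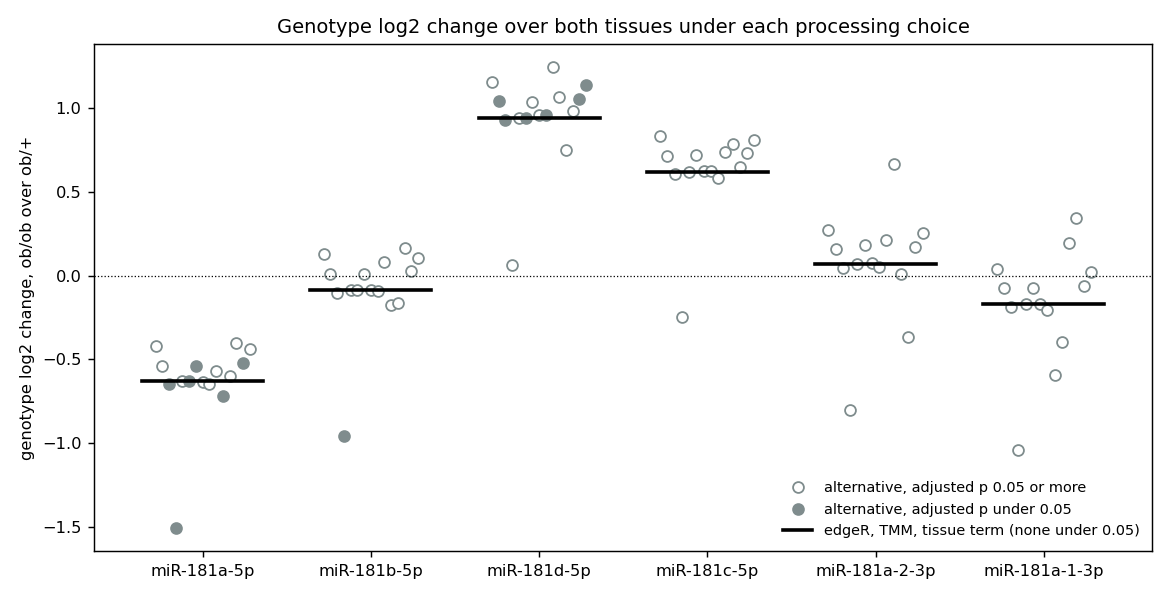
Genotype log2 change (ob/ob over ob/+, both regions) of the 6 tested arms under edgeR with TMM scaling and a region term (black line, adjusted p above 0.05 for each) and under 14 or 15 other settings (circles, filled where the adjusted p is under 0.05). miR-181a-5p stays below 0 and miR-181d-5p above 0 in every setting shown, and the other arms cross 0 or, for miR-181c-5p, do so scaled to mappable reads alone.

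Within a region and with TMM scaling, 0 of the 6 arms was at least 2-fold lower in ob/ob in jejunum (20.5% of the 322 entries were) or in colon (20.2%). At least 2-fold higher were 0 of 6 in jejunum (18.6% of entries) and 1 of 6 in colon (21.4%), namely miR-181d-5p. Summed over the 5p arms, the ob/ob libraries stood at 5736 CPM in jejunum and 6754 CPM in colon, and the ob/+ libraries at 7260 and 9923 CPM. The log2 ratio of the sum was -0.34 in jejunum (interval -0.42 to -0.26) and -0.55 in colon (-0.63 to -0.48). Without miR-181a-5p the sum of the other 3 guides had log2 ratios of 0.084 in jejunum and 0.068 in colon. With TMM scaling the lower sum in ob/ob thus rested on miR-181a-5p. Scaled to mappable reads miR-181b-5p was lower in ob/ob as well (log2 -0.85 in jejunum and -1.07 in colon).

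Scaling to mappable reads in place of miRNA counts shifts all miRNAs alike, by -0.82 in jejunum and -0.93 in colon in log2. The ob/ob libraries held a smaller share of miRNAs. Scaled to mappable reads, the median log2 ratio of the 322 entries was -0.80 in jejunum and -1.14 in colon. On that scale the log2 ratio of miR-181a-5p was -1.30 in jejunum and -1.71 in colon. miR-181d-5p stood at -0.17 and 0.29, close to equal amounts per mappable read in both genotypes. On it miR-181b-5p and both passenger arms of miR-181a also had negative ratios in both regions. The direction of a single arm can thus depend on the scaling, although miR-181a-5p was lower in ob/ob in both regions on both scales. The ratio of 1 arm to another within a library does not depend on the scaling.

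**Figure D4:**
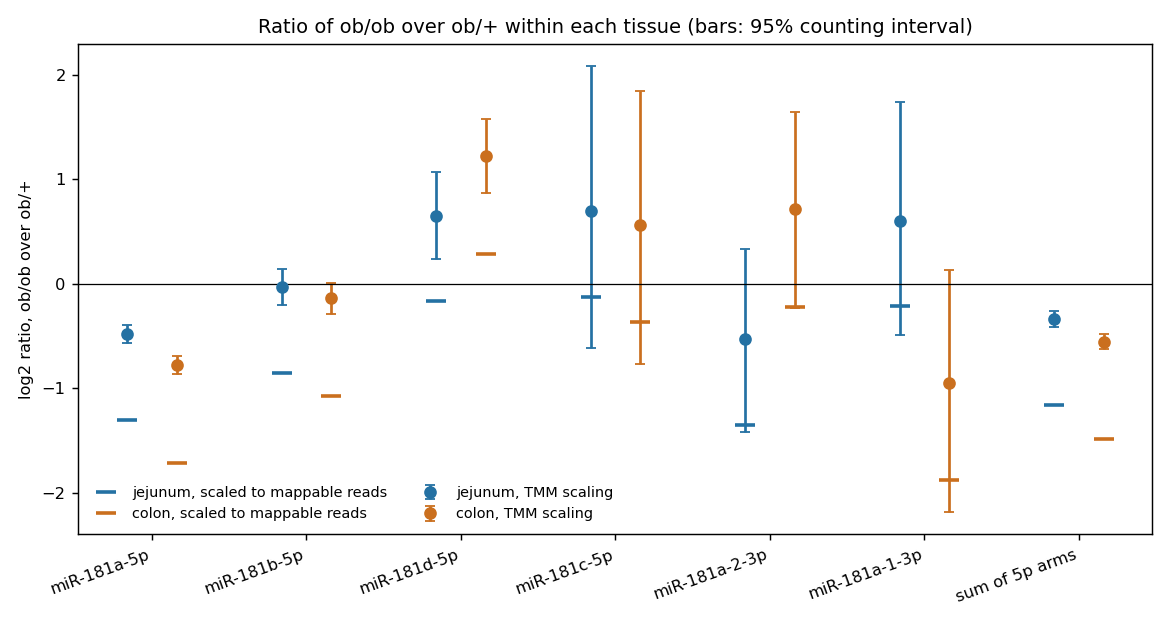
Log2 ratio of ob/ob over ob/+ in jejunum (blue) and colon (orange) for each tested arm and for the sum of the 5p arms; circles are TMM-scaled ratios with exact conditional 95% counting intervals and dashes the same ratios scaled to mappable reads. Circles of miR-181a-5p lie below 0 and those of miR-181d-5p above 0 in both regions, and the dashes lie lower for every arm.

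The authors' deposited table of ob/ob to ob/+ ratios lists 235 miRNAs, among them 6 of this family. In the authors' deposited table miR-181a-5p has ratios of 0.659 in small intestine and 0.616 in colon, miR-181b-5p 0.900 and 0.962, miR-181d-5p 1.44 and 2.46, and miR-181c-5p 1.49 and 1.57. In it miR-181a-1-3p has 1.40 and 0.549, and miR-181a-2-3p 0.638 and 1.74. These are the same counts under the authors' own scaling factors, so they are no second measurement.

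Colon was compared with jejunum to see whether the family differs along the gut. The 5p sum was higher in colon in both genotypes, with a log2 ratio of 0.24 in ob/ob (interval 0.15 to 0.32) and 0.45 in ob/+ (0.39 to 0.51). Over both genotypes 0 of the 6 arms passed edgeR's quasi-likelihood test with genotype as a term, as did 0 of all 322 entries (0%). At an unadjusted p under 0.05 the count was 0 of the 6 and 13 of the 322, and DESeq2 and limma-voom also called 0 of both, with 6 and 13 of the 322 at an unadjusted p under 0.05. By level, 0 of the 6 arms was at least 2-fold higher in colon (6.83% of the entries in ob/ob, 5.28% in ob/+) and 0 at least 2-fold lower (5.28% in ob/ob, 10.6% in ob/+). miR-181b-5p, with 1710 and 1319 CPM in colon and jejunum of ob/ob and 1879 and 1346 CPM in ob/+, had a log2 change of 0.43 ± 0.20 (adjusted p = 0.964). miR-181a-5p had 0.31 ± 0.18 (adjusted p = 0.964). miR-181d-5p was 1.54-fold higher in colon than in jejunum in ob/ob (log2 0.62, interval 0.27 to 0.98) and 1.04-fold in ob/+ (0.05, -0.36 to 0.47), a difference between the genotypes that was not tested.

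Profiles over the 4 libraries, each centred on its own mean in log2 CPM, placed the guides in 2 pairs. The Euclidean distance was 0.569 between miR-181a-5p and miR-181b-5p and 0.583 between miR-181c-5p and miR-181d-5p, against 1.63 between miR-181a-5p and miR-181d-5p. Among the 146 other entries averaging 100 CPM or more, those nearest to miR-181a-5p were let-7d-3p (0.175), miR-29a-3p (0.181) and miR-125b-5p (0.186). Nearest to miR-181b-5p were miR-125a-5p (0.176), miR-423-3p (0.255) and miR-484 (0.272). miR-181c-5p lay nearest to miR-145a-3p (0.0986), miR-6240 (0.101) and miR-30a-5p (0.104). For miR-181d-5p the nearest were miR-129-2-3p (0.479), let-7e-5p (0.530) and miR-6240 (0.547), at distances well above those of the other guides' neighbours. All these entries lay nearer to the guide than its partner in the pair did. The median distance over the 146 entries was 0.900 for miR-181a-5p, 0.848 for miR-181b-5p, 0.981 for miR-181c-5p and 1.33 for miR-181d-5p. The profile of miR-181c-5p rests on 9 to 14 counts per library, and the counting error of the distances was not estimated. With 4 points each, these distances are descriptions and carry no test.

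The miRNAs of the Mir23a cluster, the next miRNA genes beside Mir181c on chromosome 8 were set beside miR-181d-5p. Of 6 arms listed 4 were tested, and 1 fell in ob/ob while 0 rose (10.2% of all entries fell and 8.07% rose). miR-23a-3p fell to 7777 CPM in ob/ob jejunum and 6241 CPM in ob/ob colon, against 15095 and 14570 CPM in ob/+, with a log2 change of -1.09 ± 0.17 (edgeR, adjusted p = 0.0194). miR-27a-3p had a log2 change of -0.38 ± 0.29 (adjusted p = 0.379), miR-24-3p, which a second gene elsewhere also makes, of -0.17 ± 0.21 (0.582), and miR-24-2-5p of 0.11 ± 0.46 (0.846). In jejunum alone miR-24-2-5p had a log2 ratio of 0.92, and in colon of -0.61. The difference between these changes and that of miR-181d-5p was not tested.

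Some markers of other cells that the sort could hold moved with genotype in the same libraries, and others did not. The 7 leukocyte miRNAs, listed because lymphocytes hold much miR-181a, summed to 1445 CPM in ob/ob jejunum and 1083 CPM in ob/ob colon, against 785 and 716 CPM in ob/+. miR-342-3p made up most of these sums, at 1203 and 853 CPM in ob/ob jejunum and colon, against 591 and 571 CPM in ob/+. miR-155-5p lay the other way, at 23.7 and 22.0 CPM in ob/ob, against 43.4 and 42.5 CPM in ob/+ (log2 change -0.90 ± 0.39, edgeR, adjusted p = 0.155). miR-150-5p and miR-223-3p had log2 ratios of -1.59 and -1.36 in jejunum and 0.50 and 2.05 in colon. Of the 6 tested, 1 rose, miR-342-5p (log2 change 1.53 ± 0.33, edgeR, adjusted p = 0.0395). In the same test 8.07% of all 322 entries rose and 10.2% fell, shares to set beside the calls of each list here. miR-142-5p had 52.2 and 53.5 CPM in ob/ob jejunum and colon, against 25.1 and 25.8 CPM in ob/+ (log2 change 1.05 ± 0.37, edgeR, adjusted p = 0.103). The untested miR-142-3p had 1 and 0 counts in ob/ob jejunum and colon, against 4 and 2 in ob/+. The 4 fibroblast arms in the table all fell, with sums of 963 and 888 CPM in ob/ob jejunum and colon, against 4798 and 4995 CPM in ob/+. Of 6 tested epithelial arms 4 fell, with sums over 8 of 356 and 283 CPM in ob/ob, against 2088 and 897 CPM in ob/+. The untested miR-141-3p and miR-429-3p were at 0 in both ob/ob libraries. In ob/+ jejunum and colon miR-429-3p had 9 and 7 counts and miR-141-3p 2 and 3. The latter levels, 4.56 and 4.55 CPM, lay under the ob/ob floors, so the 0 counts of miR-141-3p show no fall. The 3 smooth muscle arms gave 0 calls and summed to 345694 and 244387 CPM in ob/ob jejunum and colon, against 250776 and 211812 CPM in ob/+. Near the threshold were miR-145a-5p (log2 change 0.50 ± 0.12, edgeR, adjusted p = 0.053) and miR-145a-3p (0.66 ± 0.17, 0.0614). miR-143-3p was further from it (0.12 ± 0.15, 0.588). The 4 tested neuronal and glial arms (sums of 352 to 399.9 CPM over 5) and the 2 endothelial arms (441 to 616 CPM) also gave 0 calls. The part of these cells in the values of miR-181a-5p and miR-181d-5p was not tested.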

How the data were processed

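Per the labels, mirVana RNA of the sorted cells went into Illumina small RNA libraries. Per the file headers, 3′ adapters were removed, reads under 15 nt were set aside and reads were assigned to miRBase 20 on mm9. For aligner and counter, nothing was stated. The authors deposited estimated counts, and per library 87.7% to 89.8% of those above 0 are whole (within 1e-06). The authors' normalized values are a signal, the raw count times 1 factor per library. A further deposited table holds the authors' ratio of the genotypes. Small intestine columns were taken as the jejunal libraries.

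Estimated counts were rounded to whole numbers. TMM factors were computed over all 982 entries and were 0.973 and 0.940 in ob/ob and ob/+ jejunum and 1.19 and 0.920 in ob/ob and ob/+ colon. The 322 entries averaging 10 CPM or more entered edgeR 4.0.16 (glmQLFit, glmQLFTest, threshold 0.05) with region and genotype as terms. This left 1 residual degree of freedom beside 3.80 prior degrees of freedom. The common biological coefficient of variation was 17.3%. The SE is the absolute log2 change over the square root of F, not a spread between replicates. DESeq2 1.42.0 and limma 3.58.1 were alternatives, and scipy 1.17.1 gave exact intervals. Simulated counts were also fitted, but with TMM over the tested entries and a constant spread. They are therefore no check of the fit used here. All members were named, with the 3 nearest profiles per guide and the lists for neighbouring and other cells' miRNAs. The members and lists were chosen with earlier results of these data known. Sequences and neighbours are from RefSeq for GRCm38.p6, so no coordinates are printed beside mm9 counts.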

Additional observations from a re-analysis of the deposited data

Results flagged for a closer look

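Arms are given here because their ratio had opposite signs in the 2 regions or in the 2 genotypes, with 1 library on each side and no test of the difference. The log2 ratio of ob/ob over ob/+ was 0.60 in jejunum and -0.95 in colon for miR-181a-1-3p, and -0.53 in jejunum and 0.72 in colon for miR-181a-2-3p. The log2 ratio of colon over jejunum was -0.67 in ob/ob and 0.88 in ob/+ for miR-181a-1-3p, 0.33 in ob/ob and -0.91 in ob/+ for miR-181a-2-3p, and -0.08 in ob/ob and 0.05 in ob/+ for miR-181c-5p. The highest count behind any of these was 36. The counting interval excluded 0 for 1 of the 10 ratios, that of miR-181a-2-3p in ob/+ (-1.75 to -0.09).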

How the results depend on the processing

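No paired analysis was possible because each group has 1 library and the labels give no replicate numbers to block on. The region term of the genotype test already sets ob/ob against ob/+ within each region. Of the 6 arms, edgeR called 1 by genotype with median-of-ratios factors, with no term for region or with TMM over the tested entries only, and 2 with the authors' factors, scaled to mappable reads or without hairpin entries. At a 100 CPM filter 3 arms were tested and 2 called, with 70 of 151 entries called. DESeq2 called 1, and leaving out 1 library gave 0 to 1; such fits have no second term and assume that the lone library varies like the others. Leaving out hairpins and TMM over the tested entries were chosen after the data were seen. The call without the ob/+ jejunum library was that of miR-181a-5p (-0.72, adjusted p = 0.0399), whose log2 change was -0.40 without ob/+ colon. With TMM over the tested entries the prior degrees of freedom became infinite. Of all entries, 59 were called, against 121 with the authors' factors, 177 scaled to mappable reads, 2 with no filter, 34 in limma-voom, 111 without hairpins, 121 with TMM over the tested entries, and 2 to 89 with 1 library left out (2 without either ob/ob library, 89 without ob/+ jejunum). By region 2 entries were called with the authors' factors, without hairpins or with TMM over the tested entries, and 0 otherwise.

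The genotype log2 change turned to 0.041 with library totals and 0.021 with TMM over the tested entries for miR-181a-1-3p, and to -0.80 scaled to mappable reads for miR-181a-2-3p. That of miR-181b-5p turned to 0.13 with library totals, 0.011 with median-of-ratios factors and 0.011 in DESeq2, 0.026 without hairpins and 0.11 with TMM over the tested entries, and that of miR-181c-5p to -0.25 scaled to mappable reads. With 1 library left out they ran from -0.59 to 0.34 (miR-181a-1-3p), -0.37 to 0.67 (miR-181a-2-3p) and -0.18 to 0.17 (miR-181b-5p). The region change of miR-181c-5p turned to 0.12 with library totals, 0.012 with the authors' factors, 0.011 with TMM over the tested entries, 0.11 scaled to mappable reads and 0.017 without hairpins. With 1 library left out the region changes ran from -0.39 to 0.50 (miR-181a-1-3p), -0.72 to 0.045 (miR-181a-2-3p), -0.10 to 0.62 (miR-181a-5p), -0.41 to 0.33 (miR-181c-5p) and -0.39 to 0.91 (miR-181d-5p). The cause was not tested.

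The 5p sum of ob/ob over ob/+ in jejunum moved to -0.46 with the authors' factors, -1.16 scaled to mappable reads, -0.19 with TMM over the tested entries and 0.084 without miR-181a-5p. In colon it moved to -0.18 with library totals, -0.38 with median-of-ratios factors, -0.47 with the authors' factors, -1.49 scaled to mappable reads, -0.33 with TMM over the tested entries and 0.068 without miR-181a-5p. Colon over jejunum moved to 0.52 with library totals, 0.36 with the authors' factors and 0.41 without miR-181a-5p in ob/ob, and to 0.34 with median-of-ratios factors, 0.38 with the authors' factors and 0.64 scaled to mappable reads in ob/+. The shares within the family stayed inside their counting intervals with unrounded counts and with 5p arms alone as the denominator. Arms with under 40 counts in every library have intervals over 1 log2 unit wide.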
